A study of Sus scrofa with 12 samples.

Results

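Pig miRNAs with a high miRBase number were examined in liver. Members were all names that start with ssc-miR- and carry a number of 2000 or higher, with any letter or strand suffix. They made up 117 of the 411 mature miRNAs listed for each library and held 104 distinct numbers. Samples were livers of Jinhua (JH) pigs, a Chinese breed, and Landrace (LD) pigs, a European lean breed. Each breed was represented by 3 uncastrated males of 70 days of age, and each pig gave 1 small RNA library and 1 mRNA library. The question was which of these miRNAs are present in the liver and which differ between the breeds.

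A miRNA is cut from a hairpin, by the Drosha complex in the nucleus and by Dicer in the cytoplasm, and either arm of the hairpin, named 5p or 3p, can be loaded into an Argonaute protein to repress mRNAs that it pairs with. miRBase gives numbers in order of discovery and gives homologues in different species the same number, so high numbers mark miRNAs that were found late, often by deep sequencing and at low levels. A high number does not itself mean restriction to pigs, since the numbers 2320 and 2411 are also borne by cattle miRNAs and the number 6782 by a human one, and conservation was not tested here.

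Values were RPM, the reads of a miRNA per 1000000 clean reads of its library. All RPM values above 0 were whole multiples of 1 step within a tolerance of 6e-05 RPM, which gave the clean reads of each library. JH1 had 12632521 clean reads, JH2 had 12199149 and JH3 had 10672375, while LD1 had 13341029, LD2 had 12713116 and LD3 had 13932322. The smallest value above 0 stood for 10 reads in every library, which leaves 0 to 9 reads behind a listed 0. In RPM, 9 reads were worth 0.646 to 0.843 depending on the library. A miRNA listed at 0 is therefore under this limit and not shown to be absent.

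Of the 117 members, 24 (20.5%) were above 0 in at least 1 library, against 242 of the 294 other listed miRNAs (82.3%). The remaining 93 members were listed at 0 in all 6 libraries. Of the 24, 14 were above 0 in all 6 libraries, 8 in 2 to 5 libraries and 2 in 1 library. Between 16 and 21 members were above 0 in a single library, with 16 in JH1, 21 in JH2 and 19 in each of the other libraries. The breeds thus did not separate by the number of members detected.

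Detection differed by block of numbers. In the block from 7134 to 7144, 11 of 22 names were above 0 and 8 passed the filter on low values, which asked for 3 or more libraries with an RPM of 1 or higher. The largest block, from 9784 to 9862, had 79 names, of which 6 (7.59%) were above 0 and 3 passed the filter. From 2320 to 2483, 3 of 5 names were above 0, and from 4331 to 4339, 3 of 8 were. The single name with the number 6782 was detected, whereas those with the numbers 3613 and 7857 were listed at 0 throughout. Just outside the rule, at number 1839, ssc-miR-1839-5p had 2.22, 4.43 and 4.03 RPM in JH1 to JH3 and 4.27, 5.58 and 5.67 RPM in LD1 to LD3. Its other arm, ssc-miR-1839-3p, was at 0 in all libraries. Just inside the rule were the arms of miR-2320, with 4.64 to 6.75 RPM for ssc-miR-2320-3p, which overlapped ssc-miR-1839-5p, and 8.12 to 14.5 RPM for ssc-miR-2320-5p, which lay above it.

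**Figure D1:**
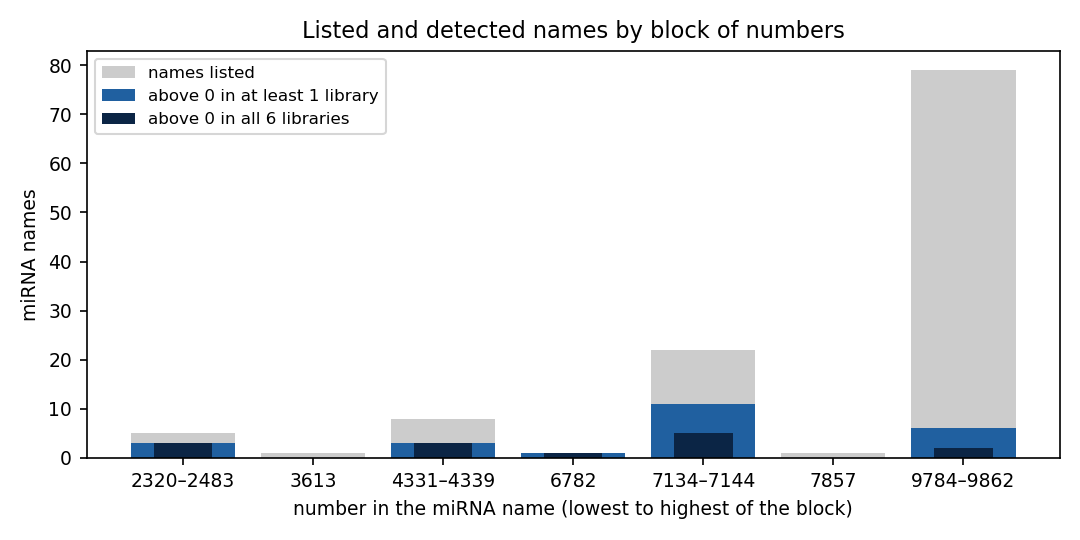
Number of miRNA names (vertical axis) in each block of numbers (horizontal axis), with grey bars for names listed, blue bars for names above 0 in at least 1 library and dark bars for names above 0 in all 6 libraries. The block from 9784 to 9862 holds 79 names and 6 detected ones, while the block from 7134 to 7144 holds 22 names and 11 detected ones.

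The members took up a small share of the listed miRNA RPM. It was 0.121% in JH1, 0.0957% in JH2 and 0.141% in JH3, and 0.148% in LD1, 0.172% in LD2 and 0.107% in LD3. Exact Clopper-Pearson 95% intervals ran from 0.0937% to 0.0977% in JH2, the lowest library, and from 0.169% to 0.175% in LD2, the highest, and cover counting error only. The mean was 0.119% ± 0.0225 (SD, n = 3) for JH and 0.142% ± 0.0329 (SD, n = 3) for LD. Ranges of the breeds overlapped, so the difference was within the spread between pigs.

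The total behind this share was dominated by ssc-miR-148a-3p and ssc-miR-122, the main liver miRNAs here, which together took 58.2%, 63.7% and 55.8% of the listed RPM in JH1 to JH3 and 49.9%, 50.7% and 49.2% in LD1 to LD3. With both left out of the total, the members' share was 0.290% ± 0.0274 (SD, n = 3) for JH and 0.285% ± 0.0696 (SD, n = 3) for LD. The order of the breed means turned, which again places the breeds within each other's spread.

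The share was carried by few members. The arms of miR-7134 held between 73.4% and 85.0% of the members' RPM in each library, and together with ssc-miR-4334-3p they held between 86.5% and 94.4%. The sum of all members besides these 3 was 55.5, 53.4 and 68.3 RPM in JH1 to JH3 and 84.0, 107 and 112 RPM in LD1 to LD3. This remainder did not overlap between the breeds, at 59.1 ± 8.05 RPM (SD, n = 3) for JH and 101 ± 14.8 RPM (SD, n = 3) for LD. Of the difference of 41.8 RPM, 25.1 RPM came from ssc-miR-9843-3p and ssc-miR-6782-3p, and without both the sum was 46.8, 49.9 and 64.0 RPM in JH1 to JH3 and 67.2, 70.0 and 73.5 RPM in LD1 to LD3. These members to leave out were chosen after their values were seen, and a sum over members was given no test. Values of the whole table also leaned towards LD, with a median log2 fold change of 0.30.

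By far the most abundant member was ssc-miR-7134-3p, at rank 40 of all listed miRNAs by mean RPM. It had 671, 582 and 769 RPM in JH1 to JH3 and 844, 930 and 531 RPM in LD1 to LD3. LD held both its highest and its lowest value, so the breeds overlapped (log2 fold change of LD over JH 0.16, standard error 0.26, limma adjusted p = 0.696). Its other arm, ssc-miR-7134-5p, had 146, 36.2 and 152 RPM in JH1 to JH3 and 142, 82.0 and 78.3 RPM in LD1 to LD3. JH2 stood far below the other JH libraries for this arm, and the breeds overlapped (log2 fold change 0.06, standard error 0.49, adjusted p = 0.958).

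The ratio of the 3p to the 5p arm of miR-7134 was 4.59, 16.1 and 5.06 in JH1 to JH3 and 5.97, 11.4 and 6.79 in LD1 to LD3. The 3p arm dominated in every library, by an amount that varied more within the breeds than between them (two-sided exact permutation p = 1). In contrast, the 5p arm was the larger one for miR-2320. There the 3p to 5p ratio was 0.484, 0.677 and 0.649 in JH1 to JH3 and 0.462, 0.418 and 0.332 in LD1 to LD3, at 0.603 ± 0.104 (SD, n = 3) for JH and 0.404 ± 0.0661 (SD, n = 3) for LD. The ratio was lower in all LD libraries than in any JH library, with an exact permutation p = 0.1, the smallest that 3 pigs against 3 allow, so the test cannot reach 0.05.

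Both arms were listed for 13 hairpins among the members. Both were above 0 in at least 1 library for 4 of these (miR-2320, miR-7134, miR-7137 and miR-7138), 1 arm was for 6, and neither was for 3 (miR-7140, miR-7141 and miR-7143). The 5p arms of miR-4334 and miR-7142 were at 0 in all libraries although their 3p arms were above 0 in all 6. The other 4 hairpins with 1 detected arm had it above 0 in 1 to 5 libraries. Their other arms, ssc-miR-7135-5p, ssc-miR-7136-3p, ssc-miR-7139-3p and ssc-miR-7144-3p, were at 0 in all libraries.

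Next to miR-7134, ssc-miR-4334-3p had 120, 56.2 and 93.9 RPM in JH1 to JH3 and 95.0, 108 and 109 RPM in LD1 to LD3. JH2 was again the lowest and JH1 the highest, so the breeds overlapped (log2 fold change 0.27, standard error 0.28, adjusted p = 0.572). Among the 14 members above 0 in all libraries, 7 had their lowest value in JH2, against 49.1% of all 226 miRNAs above 0 in all libraries, so low values in JH2 were as frequent among the members as in the whole table. JH2 also gave 36.8% of its listed RPM to ssc-miR-122, against 17.9% to 30.7% in the other libraries, and the part of this in the low values of JH2 was not tested.

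Of the 24 detected members, 18 passed the filter on low values and were compared between the breeds with limma on log2(RPM + 0.5). The added 0.5 makes the change of a low miRNA come out smaller. A listed 0 that hides reads can make it come out larger. For ssc-miR-7136-5p it was -2.10, and -1.27 with 9 reads in place of each 0. The median of the mean RPM was 4.18 for the 18 members, against 68.7 for the 223 other miRNAs that passed. To be called DE, a miRNA needed an absolute log2 fold change above 1 together with an unadjusted p below 0.05. Of the 18, 3 (16.7%) were called, against 30 of all 241 tested miRNAs (12.4%), so in this fit the members' share of calls was near the background. Without JH2, 1 of the 18 members (5.56%) was called, against 30 of 239 miRNAs (12.6%), a share under the background. With Benjamini-Hochberg adjusted p in place of the unadjusted p, 2 members (11.1%) were called, ssc-miR-9843-3p and, close to the limit, ssc-miR-6782-3p, against 9.54% of all. Without the fold change limit, 5 members (27.8%) had an unadjusted p below 0.05, against 29.9% of all. The values of the breeds did not overlap for 3 members (16.7%), against 33.6% of all.

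The median log2 fold change was 0.31 over the 18 members and 0.30 over all 241 miRNAs. It was above 0 for 15 members (83.3%) and for 76.8% of all. The lean towards LD was thus that of the whole table. Shifting each library to the same median moved the median of all miRNAs by -0.39, and quantile normalization moved it by -0.36. Of the 18 members, 8 were then above 0 after median scaling and 7 after quantile normalization. After median scaling the members' median was -0.09 and that of all was -0.09. Under both scalings the members called were still 2 higher in LD and 1 higher in JH. These were 16.7% of the 18 members, against 8.30% of all 241 miRNAs under each scaling, a difference that was not tested. Relative to the median of all miRNAs, the log2 fold changes of the called members were 1.77 for ssc-miR-9843-3p, 1.96 for ssc-miR-6782-3p and -2.40 for ssc-miR-7136-5p.

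**Figure D2:**
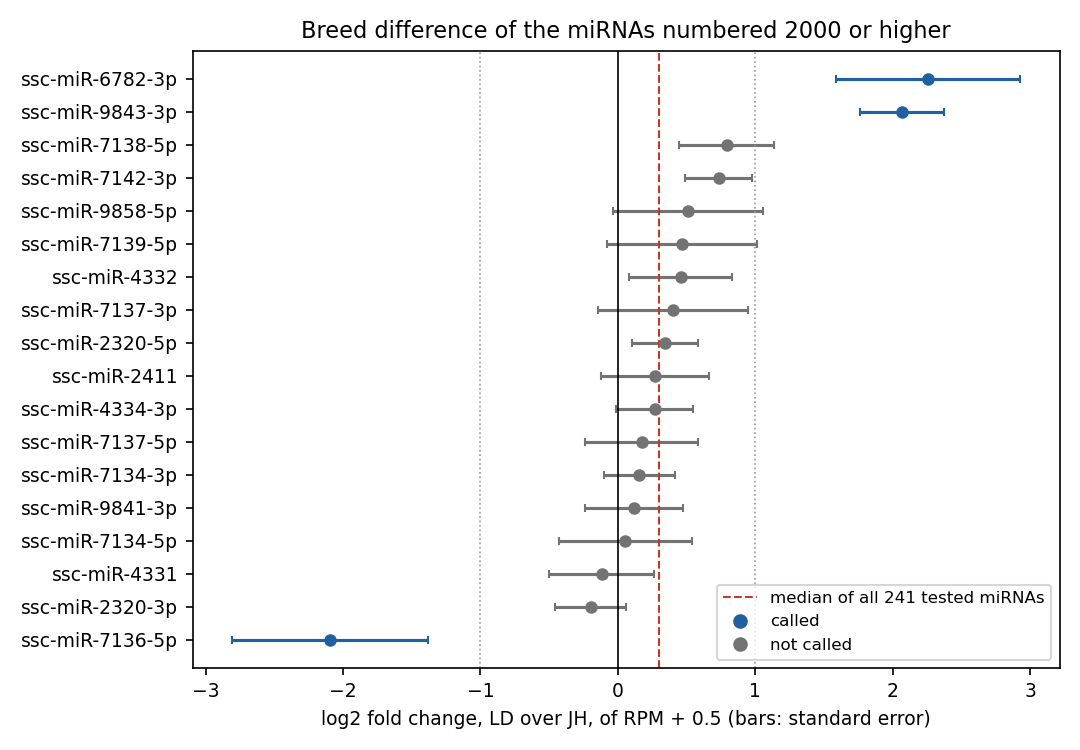
Log2 fold change (LD over JH) of RPM + 0.5 (horizontal axis) with standard error bars for the 18 members that passed the filter. Blue points were called and grey points were not, dotted lines mark the fold change limit, and the dashed line marks the median of all 241 tested miRNAs, 0.30. The points of ssc-miR-6782-3p and ssc-miR-9843-3p lie above 2 and that of ssc-miR-7136-5p below -2, while the other 15 lie between -0.20 and 0.79.

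The clearest breed difference among the members was that of ssc-miR-9843-3p. It had 5.22, 2.46 and 2.44 RPM in JH1 to JH3 and 14.1, 16.8 and 14.0 RPM in LD1 to LD3, from 26 to 214 reads per library. Each LD value exceeded every JH value, at 3.37 ± 1.60 RPM (SD, n = 3) for JH and 15.0 ± 1.61 RPM (SD, n = 3) for LD. The log2 fold change was 2.07 (standard error 0.31, limma adjusted p = 0.00301), and the exact permutation p was 0.1, its smallest possible value. The call held in each of the 6 fits that left out 1 library, with log2 fold changes from 1.91 to 2.39. It also held in the other alternatives, over which the value fell as low as 1.27 with a pseudocount of 5, and was 1.63 after quantile normalization and 1.67 after median scaling. The adjusted p ran from 0.000844 to 0.03 over all alternatives. In bulk liver, more RNA per cell and more of the cells that carry it cannot be told apart.

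The other member that was higher in LD, ssc-miR-6782-3p, differed among the LD pigs as well. It had 3.48, 1.07 and 1.87 RPM in JH1 to JH3 and 2.70, 19.9 and 24.3 RPM in LD1 to LD3. LD2 and LD3 were high, while LD1 lay within the JH range, so the breeds overlapped. Across the libraries its highest value was 22.8 times its lowest, the widest span among the 14 members above 0 in all libraries. The log2 fold change was 2.26 (standard error 0.67, unadjusted p = 0.00655, adjusted p = 0.0493), and the exact permutation p was 0.2. It was no longer called without JH2, at 1.93 (unadjusted p = 0.0525, adjusted p = 0.167), or with voom on recovered reads, at 2.48 (unadjusted p = 0.062, adjusted p = 0.202). Without LD1, the low LD library, it was 3.20 (adjusted p = 0.000216), and over all alternatives the adjusted p ran from 0.000216 to 0.202. It was below 0.05 in 4 of 14 alternatives, and both median scaling (0.136) and quantile normalization (0.167) took it above that limit.

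The only member called higher in JH was ssc-miR-7136-5p. It had 4.43, 5.98 and 1.41 RPM in JH1 to JH3, 2.62 RPM in LD1 and was listed at 0 in LD2 and LD3. LD1 lay between the JH values, so the breeds overlapped. The log2 fold change was -2.10 (standard error 0.71, unadjusted p = 0.0136, adjusted p = 0.0676), with an exact permutation p of 0.2. Its size rests on how the listed 0 values are read, since it was -1.27 with 9 reads in place of each 0, and -0.60 and no longer called with a pseudocount of 5. In the other direction, it was -3.52 with a pseudocount of 0.1 and -4.52 with voom on recovered reads, and called in both. Without JH1 (-1.93, adjusted p = 0.204) and without JH2 (-1.74, adjusted p = 0.228) it was not called either. Without LD1 it was -2.98 (adjusted p = 0.00262), and over all alternatives the adjusted p ran from 0.00262 to 0.228. The other arm, ssc-miR-7136-3p, was at 0 in all libraries.

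A pair of further members had an unadjusted p below 0.05 but missed the fold change limit. For ssc-miR-7142-3p the values were 11.8, 12.9 and 19.8 RPM in JH1 to JH3 and 25.8, 24.1 and 23.2 RPM in LD1 to LD3. All LD values were above all JH values (log2 fold change 0.73, standard error 0.25, adjusted p = 0.0649). For ssc-miR-7138-5p they were 5.94, 4.18 and 12.6 RPM in JH1 to JH3 and 11.7, 12.7 and 12.2 RPM in LD1 to LD3. The LD values were close together and JH3 lay among them, so the breeds overlapped (log2 fold change 0.79, standard error 0.35, adjusted p = 0.151). Without JH3 it was called, at 1.21 (adjusted p = 0.0342, within a range from 0.0342 to 0.633 over all alternatives). After median scaling, ssc-miR-7142-3p was at 0.34 (unadjusted p = 0.183) and ssc-miR-7138-5p at 0.40 (unadjusted p = 0.243), so both lost the p limit there, as they did after quantile normalization. Among the fits with 1 library left out, ssc-miR-7142-3p lost it without LD1 (0.69, unadjusted p = 0.0532), and ssc-miR-7138-5p met it only without JH3.

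The arms of miR-2320 sat at moderate levels. The values of ssc-miR-2320-5p were 9.66, 8.12 and 10.4 RPM in JH1 to JH3 and 10.7, 11.1 and 14.5 RPM in LD1 to LD3, without overlap but with a narrow gap (log2 fold change 0.34, standard error 0.24, adjusted p = 0.377). The direction turned after median scaling (-0.051) and quantile normalization (-0.057), while relative to the median of all miRNAs it was 0.042. Its direction relative to the other miRNAs was thus not settled. Those of ssc-miR-2320-3p were 4.67, 5.49 and 6.75 RPM in JH1 to JH3 and 4.95, 4.64 and 4.81 RPM in LD1 to LD3. In RPM as deposited this was the steadiest of the 14 members above 0 in all libraries, with a highest value 1.45 times the lowest and overlapping breeds (log2 fold change -0.20, standard error 0.26, adjusted p = 0.63). Relative to the other miRNAs this arm lay lower in LD, at -0.59 after median scaling (unadjusted p = 0.0462, adjusted p = 0.19) and -0.56 after quantile normalization (unadjusted p = 0.0345, adjusted p = 0.181), and the adjusted p ran from 0.181 to 0.889 over all alternatives.

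The remaining members that passed the filter were low, and none was called. For ssc-miR-4332 the RPM were 3.09, 1.56 and 3.0 in JH1 to JH3 and 2.10, 4.48 and 4.67 in LD1 to LD3 (log2 fold change 0.46, standard error 0.38). For ssc-miR-2411 they were 0.792, 2.21 and 1.03 in JH1 to JH3 and 1.57, 1.26 and 2.08 in LD1 to LD3 (0.27, standard error 0.40). Both overlapped between the breeds, as did the following. The RPM of ssc-miR-4331 were 1.98, 0.820 and 1.41 in JH1 to JH3 and 1.12, 1.49 and 1.00 in LD1 to LD3 (-0.12, standard error 0.38). Those of ssc-miR-9841-3p were 1.03, 0.984 and 1.22 in JH1 to JH3 and 1.5, 0.944 and 1.22 in LD1 to LD3 (0.12, standard error 0.36). These values stood for 10 to 65 reads, where single reads weigh much.

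For the hairpin miR-7137 both arms were near 1 RPM. Its 5p arm, ssc-miR-7137-5p, had 1.5, 0.984 and 1.03 RPM in JH1 to JH3 and 1.05, 2.60 and 0.861 RPM in LD1 to LD3 (log2 fold change 0.17, standard error 0.41). Its 3p arm, ssc-miR-7137-3p, had 1.90 and 0.984 RPM in JH1 and JH2, 0 in JH3, and 1.05, 1.1 and 1.15 RPM in LD1 to LD3 (0.40, standard error 0.55). Next to these, JH1 was the library at 0 for the following pair. The RPM of ssc-miR-9858-5p were 0, 1.64 and 1.22 in JH1 to JH3 and 0.974, 1.18 and 1.65 in LD1 to LD3 (0.51, standard error 0.54). Those of ssc-miR-7139-5p were 0, 1.39 and 1.59 in JH1 to JH3 and 0.974, 1.42 and 1.36 in LD1 to LD3 (0.47, standard error 0.54). All 4 overlapped between the breeds and had adjusted p-values above the limit of 0.05.

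**Figure D3:**
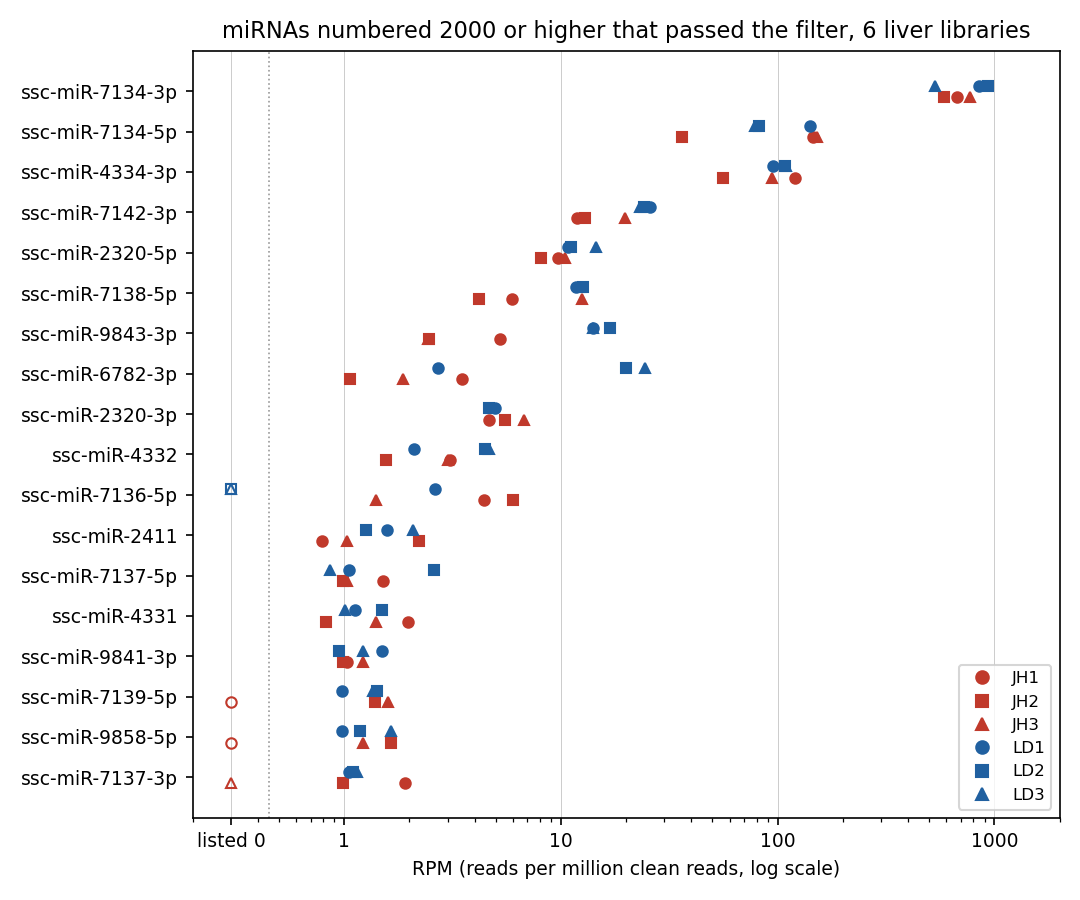
RPM on a log axis (horizontal) of the 18 members that passed the filter, with 1 symbol per library, JH in red and LD in blue. Open symbols left of the dotted line are values listed as 0. Red and blue lie apart for ssc-miR-9843-3p, ssc-miR-7142-3p and ssc-miR-2320-5p, and ssc-miR-7134-3p lies furthest right, between 531 and 930 RPM.

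The 6 detected members that did not pass the filter were each above 0 in 1 or 2 libraries. In LD alone, ssc-miR-7135-3p had 2.20 RPM in LD2 and 3.80 RPM in LD3, and ssc-miR-7138-3p had 0.787 and 1.00 RPM in the same libraries. LD1 was at 0 for both, as all JH libraries were. With no filter on low values ssc-miR-7135-3p was called, at a log2 fold change of 1.85 (adjusted p = 0.107). In JH alone, ssc-miR-9820-5p had 0.820 RPM in JH2 and 1.31 RPM in JH3. JH2 was the sole library with ssc-miR-9851-3p, at 1.07 RPM, and with ssc-miR-7144-5p, at 0.820 RPM. Finally, ssc-miR-9860-5p had 1.31 RPM in JH3 and 1.12 RPM in LD1. Apart from ssc-miR-7135-3p, with 28 and 53 reads, these values stood for 10 to 15 reads, so detection in a single breed was at the edge of what the tables list.

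Many miRNA hairpins lie inside other genes. In RefSeq's Sscrofa11.1 annotation, 19 of the 20 numbers of the detected members matched a miRNA gene, of which 18 were placed on a chromosome. Of these, 14 (77.8%) lay within the span of a protein-coding gene, against 37 of 75 hairpins of the members listed at 0 (49.3%) and 109 of 220 other miRNA genes (49.5%). Within a gene of any kind lay the same 14, 44 of the 75 (58.7%) and 123 of the 220 (55.9%). The hairpins of detected members and those of members listed at 0 were not separate groups. They shared 6 hairpins with an arm detected and the other arm listed at 0, miR-4334, miR-7135, miR-7136, miR-7139, miR-7142 and miR-7144. Each counted on both sides, and all except miR-7136 lay within a protein-coding gene. Strand and exons were not in the table used here, so the hairpins cannot be placed in introns or on the sense strand. The hairpins of miR-4331, miR-7136, miR-9858 and miR-9860 lay in no gene.

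Of the 14 host genes, 7 could be tested in the mRNA libraries, with limma on log2(RPKM + 0.1), where RPKM are reads scaled to gene length and library size. None passed the limits for genes, an absolute log2 fold change above 1 with an adjusted p below 0.05, where 2.39% of all 12993 tested genes were called, and 3 of the 7 (42.9%) had an unadjusted p below 0.05, against 17.9% of all, a difference that was not tested with so few genes. FGFR4, a receptor for fibroblast growth factors that restrains bile acid synthesis in hepatocytes, spans the hairpin of miR-7138. It had 23.8, 27.8 and 23.2 RPKM in JH1 to JH3 and 37.4, 51.3 and 29.9 RPKM in LD1 to LD3. Each LD value exceeded every JH value (log2 fold change 0.63, standard error 0.26, adjusted p = 0.253), and ssc-miR-7138-5p was at 0.79.

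ABCC1, an efflux transporter, spans the hairpin of miR-7135 and had 9.44, 8.46 and 9.71 RPKM in JH1 to JH3 and 15.4, 16.9 and 16.6 RPKM in LD1 to LD3. The breeds lay apart (log2 fold change 0.82, standard error 0.22, adjusted p = 0.0963). In contrast, ssc-miR-7135-3p was above 0 in LD2 and LD3 alone and was listed at 0 in LD1, where ABCC1 had 15.4 RPKM. DNPEP, an aminopeptidase, spans the hairpin of miR-4334 and had 29.4, 32.7 and 32.4 RPKM in JH1 to JH3 and 22.9, 24.6 and 17.5 RPKM in LD1 to LD3. Here the host was lower in all LD libraries (log2 fold change -0.55, standard error 0.24, adjusted p = 0.263) while ssc-miR-4334-3p was at 0.27. The miRNA had no settled sign, since it was at -0.13 after median scaling and -0.035 without JH2, whereas DNPEP ran from -0.65 to -0.40 over all alternatives.

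SGMS2, a sphingomyelin synthase, spans the hairpin of miR-9843 and had 0.981, 0.465 and 0.233 RPKM in JH1 to JH3 and 1.08, 0.685 and 0.627 RPKM in LD1 to LD3. The breeds overlapped (log2 fold change 0.58, standard error 0.54, adjusted p = 0.619), unlike those of ssc-miR-9843-3p. The kinase gene MARK2, host of miR-7142, was at -0.08 (standard error 0.24), while ssc-miR-7142-3p was at 0.73. UBAP2L, host of miR-2411, was at 0.40 (standard error 0.33), and ARGLU1, host of miR-7144, was at -0.18 (standard error 0.23). TNRC6B, a scaffold of the silencing complex and the host of the abundant miR-7134, was listed at 0 in all 6 mRNA libraries, so its level could not be compared. SIL1, host of miR-9820, was also listed at 0, under the name LOC100626868. E2F7, F13A1 and HSPA12A, hosts of miR-7139, miR-9841 and miR-9851, were under the filter, which asked for 3 or more libraries with an RPKM of 0.5 or higher, and BUD23, host of miR-7137, matched no listed name.

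The genes that make and carry miRNAs were examined in the same mRNA libraries. Of a list of 25, 22 were listed and 21 were tested, and limma called none. At an unadjusted p below 0.05 there were 2 (9.52%), PARN and TUT4, against 17.9% of all genes. Of the 21 log2 fold changes, 9 were above 0 and 12 below, with a median of -0.12 against -0.04 over all genes. PARN, a deadenylase that trims RNA ends, had 12.9, 10.7 and 8.64 RPKM in JH1 to JH3 and 5.89, 7.68 and 4.74 RPKM in LD1 to LD3. Its JH values lay above its LD values (log2 fold change -0.82, standard error 0.28, adjusted p = 0.168). Listed as ZCCHC11, TUT4, which adds uridines to RNA ends, had 1.63, 1.91 and 1.13 RPKM in JH1 to JH3 and 2.38, 2.77 and 2.48 RPKM in LD1 to LD3 (log2 fold change 0.70, standard error 0.30, adjusted p = 0.262). Here the LD values lay above the JH values. Some of the other processing genes tested were also without overlap, in both directions. The share of such genes over all tested genes was not worked out. AGO4, an Argonaute gene listed as EIF2C4, was at 0.65 (standard error 0.38). DROSHA was at 0.21 (standard error 0.32), its partner DGCR8 at -0.05 (standard error 0.27), DICER1 at 0.20 (standard error 0.30) and AGO2, listed as EIF2C2, at -0.12 (standard error 0.42), each with overlapping breeds.

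Markers of cell types were read from the same libraries. Hepatocyte mRNAs were abundant throughout, with all 5 (ALB, APOA1, TTR, SERPINA1 and TF) above 0 and a sum of 68960, 57861 and 56813 RPKM in JH1 to JH3 and 85186, 71754 and 83872 RPKM in LD1 to LD3, led by ALB. This sum was higher in all LD libraries than in any JH library. APOA1 ran the other way, with 22277, 16075 and 10301 RPKM in JH1 to JH3 and 7613, 10116 and 7399 RPKM in LD1 to LD3, each LD value being under the lowest of JH. The hepatocyte miRNA ssc-miR-122 had 147073, 280427 and 177728 RPM in JH1 to JH3 and 186546, 219414 and 174803 RPM in LD1 to LD3. It overlapped between the breeds, with JH2 highest. The sum of 5 miRNAs typical of mesenchymal cells, led by ssc-miR-143-3p, was 36681, 24715 and 29808 RPM in JH1 to JH3 and 60408, 48099 and 54358 RPM in LD1 to LD3. This sum was thus higher in all LD libraries. Its most abundant part, ssc-miR-143-3p, overlapped between the breeds, with 28033 RPM in JH1 and 26400 RPM in LD2. Each of the other parts was higher in all LD libraries than in any JH library. Among them, ssc-miR-199a-3p and ssc-miR-199b-3p had close means, 3665 and 3622 RPM in JH and 7845 and 8020 RPM in LD. The bile duct miRNA ssc-miR-429, the sole one of 5 with a listed name, was likewise higher in LD, at 3.17, 2.21 and 2.16 RPM in JH1 to JH3 and 10.6, 12.11 and 7.54 RPM in LD1 to LD3. Sums of erythroid miRNAs, 3 led by ssc-miR-451, were 1120, 511 and 763 RPM in JH1 to JH3 and 370.0, 603 and 580 RPM in LD1 to LD3. Those of myeloid miRNAs, 2 of 3 listed and led by ssc-miR-142-3p, were 228, 199 and 151 RPM against 178, 160 and 193 RPM. Those of endothelial miRNAs, 2 led by ssc-miR-126-3p, were 13560, 6464 and 9734 RPM against 8624, 7727 and 7780 RPM, and these 3 sums overlapped between the breeds. Within the myeloid sum the arms differed. The 5p arm, ssc-miR-142-5p, had 70.8, 83.1 and 71.8 RPM in JH1 to JH3 and 87.5, 85.4 and 92.4 RPM in LD1 to LD3, without overlap. The values of ssc-miR-142-3p overlapped, with a mean of 117 RPM in JH and 88.7 RPM in LD. The part of cell composition in the members' values was not tested.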

How the data were processed

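Small RNA and mRNA of the liver were sequenced from 3 JH and 3 LD pigs. The authors filtered the small RNA reads, annotated them against miRBase among other databases and deposited RPM values. For mRNA, the authors aligned reads to Sus scrofa 10.2 with Tophat (TopHat2 2.0.13 in the submitters' processing notes), used gfold to count the reads of each gene, and deposited RPKM values.

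Libraries were grouped by their public labels. Breeds were compared, LD over JH, using limma 3.58.1 under R 4.3.3 (lmFit, then eBayes with a variance trend). Input was log2(RPM + 0.5) of miRNAs that had 3 or more libraries with an RPM of 1 or higher, and log2(RPKM + 0.1) of genes that had 3 or more libraries with an RPKM of 0.5 or higher. When a library was left out, the same filter was applied to the others. Adjusted p-values are Benjamini-Hochberg values over all miRNAs or genes tested. The tests were tested on simulated data. Single members were also compared by two-sided exact permutation tests of the difference in mean RPM over 20 labellings. Tables and plots used Python 3.11.15, numpy 2.4.6, pandas 2.3.3, scipy 1.17.1 and matplotlib 3.10.9. Several reads can come from 1 molecule, so intervals from reads cover counting error only.

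Every member above 0 in at least 1 library was named, with the other arm where listed, the markers, and among 25 processing genes those called or, with none called, the top 3 by absolute log2 fold change plus DROSHA, DGCR8, DICER1 and AGO2. No other miRNA had values identical to a detected member's. The host genes were added after the values were seen, and 1 of them is not reported here. The members and lists were chosen with earlier results of these data known. Mature sequences and shared seeds were not analysed here. Alternatives were other pseudocounts, no filter, quantile normalization, median scaling, 9 reads in place of each 0, the replicate block, each library left out, other limits for calls and other totals for shares, and, chosen after seeing the data, voom on recovered reads.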

Additional observations from a re-analysis of the deposited data

How the results depend on the processing

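The members called, 3 in all, ranged from 1 to 4 in the fits that left out 1 library, with 1 without JH2, and came to 5 without the fold change limit. With voom on recovered reads, chosen after seeing the data, 2 members were called (11.1%, against 14.1% of all). There ssc-miR-6782-3p was not called (log2 fold change 2.48, adjusted p = 0.202, the highest among its alternatives). All miRNAs called, 30, came to 14 with a pseudocount of 5 and 72 without the fold change limit, and to 25 to 35 with 1 library left out. Their split was 25 higher in LD to 5 in JH, against 10 to 10 after median scaling and 12 to 8 after quantile normalization. The members' median went from 0.31 to -0.12 under quantile normalization. Members above 0 fell from 24 to 14 if all 6 libraries were asked for. Without the most abundant member the share was 0.0331% in JH and 0.0402% in LD, and without the 2 most abundant miRNAs in the total 0.290% and 0.285%.

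With the replicate block, 3 members (16.7%) and 29 of all miRNAs (12.0%) were called. The limma adjusted p-values were 0.029 for ssc-miR-9843-3p and 0.106 for ssc-miR-6782-3p, and the unadjusted p of ssc-miR-7138-5p was 0.0539. Measured from the mean of each breed, libraries with the same number had deviations with a mean r of -0.16 across miRNAs and 0.07 across genes (-0.02, 0.05 and 0.18), and 0 and 2 of the 6 libraries correlated best with their own number. Libraries with different numbers had a mean r of 0.08 across miRNAs and -0.035 across genes. The labels state no pairing and the breeds are different pigs, so no paired design was assumed.

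Over 252 alternatives of the 18 members, 221 kept direction and side of the limits, 5 lost the call, 1 gained it and 25 turned sign, none of these for a called member. Under quantile normalization the log2 fold change was -0.30 for ssc-miR-7134-5p, -0.18 for ssc-miR-7134-3p, -0.057 for ssc-miR-2320-5p, -0.33 for ssc-miR-9841-3p, -0.13 for ssc-miR-7137-3p, -0.36 for ssc-miR-7137-5p, -0.21 for ssc-miR-9858-5p and -0.33 for ssc-miR-7139-5p. Under median scaling it was -0.34 for ssc-miR-7134-5p, -0.24 for ssc-miR-7134-3p, -0.13 for ssc-miR-4334-3p, -0.051 for ssc-miR-2320-5p, -0.28 for ssc-miR-9841-3p, -0.12 for ssc-miR-2411 and -0.22 for ssc-miR-7137-5p. Both scalings remove an overall shift by construction. With 9 reads in place of each 0, ssc-miR-7137-3p was at -0.075, ssc-miR-9858-5p at 0.086 and ssc-miR-7139-5p at 0.044. With a pseudocount of 0.1 they were at 0.997, 1.131 and 1.079 in that order. With voom on recovered reads they were at 1.181, 1.645 and 1.597. None of them was called in these fits.

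With 1 library left out, signs turned within ranges of -0.62 to 0.41 for ssc-miR-7134-5p, -0.36 to 0.10 for ssc-miR-4331, -9.54e-05 to 0.40 for ssc-miR-7134-3p, -0.035 to 0.51 for ssc-miR-4334-3p, -0.24 to 0.89 for ssc-miR-7137-3p, -0.19 to 0.40 for ssc-miR-7137-5p, -0.13 to 0.91 for ssc-miR-9858-5p and -0.19 to 0.84 for ssc-miR-7139-5p. Among mRNAs, the lowest and highest log2 fold changes over the alternatives were -0.012 and 0.40 for DROSHA, -0.23 and 0.076 for DGCR8 (0.026 under quantile normalization), -0.082 and 0.34 for DICER1, -0.55 and 0.13 for AGO2, and -0.16 and 0.017 for MARK2, and no processing gene was called in any. The cause was not tested. The planned edgeR and DESeq2 fits were not run, since the tables hold no values under 10 reads. Depth limits the members near 1 RPM, whose values stand for 10 to 33 reads.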

Other observations

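The next lower range of numbers, from 1224 to 1839, gave 9 of 14 names above 0 (64.3%), between the 20.5% of the members and the 82.3% of the other miRNAs. In that range 7 passed the filter, of which limma called 0, against 12.4% of all tested miRNAs. An unadjusted p below 0.05 was found for 0 of the 7, against 29.9% of all. These differences were not tested with so few miRNAs. The median of the mean RPM of these 7 was 9.01. In the mRNA tables, 4 hairpin genes of members were listed and 0 were above 0, against 42 of all 185 hairpin genes listed there.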
